A study of Mus musculus with 4 samples.

Results

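The genes described here carry the systematic names of families known for modifying RNA bases and riboses, though not every member acts on RNA. The names are Trmt (tRNA methyltransferases), Nsun (RNA 5-methylcytosine methyltransferases), Mettl (methyltransferase-like proteins) and Dus (dihydrouridine synthases). Pus, Pusl and Rpusd (pseudouridine synthases) and Thumpd (proteins with a THUMP RNA-binding domain) complete the list. The genes were taken by name among the protein coding rows of the count table, which gave 61 genes of 28443 in all. Of these, 57 had enough counts to be tested, Mettl21c had counts below the filter, and Mettl24, Mettl7a2 and Mettl7a3 had no count in any library. The name does not fix the substrate, so each gene was placed in a class by its main known substrate. This gave 25 genes for cytosolic tRNA, 9 for mitochondrial RNA, 2 for cytosolic rRNA, 5 for mRNA and small nuclear RNA (snRNA), 1 adaptor shared by several enzymes (Trmt112), 10 whose substrates are proteins or small molecules, and 9 with no substrate assigned. Because only Mettl5 and Nsun5 represent cytosolic rRNA, 74 further RNA modification genes with other names were used to complete the contrast between rRNA, tRNA and mRNA enzymes.

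RNA was sequenced from mouse BMDMs (macrophages obtained by culture of bone marrow, here of mice aged 8 weeks) after 1 day with RANKL at 50 ng/ml, the cytokine that starts osteoclast differentiation. The control group (MYC-WT, 2 libraries) came from mice labelled LysM cre with genotype WT. The second group (MYC-deficient, 2 libraries) came from mice labelled MYC f/fLysM cre with genotype MYC cKO, in which the recombinase deletes the floxed Myc gene. Both groups therefore carry the LysM-driven Cre, which is active in monocytes, macrophages and neutrophils and not in osteoclasts alone, and both received RANKL, so no response to RANKL itself is measured. The replicates are described as biological, and no source used here gives the number of mice behind each library. The comparison asks how the loss of MYC, a transcription factor that drives growth, changes gene expression early in osteoclast formation.

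Total counts per library were between 27544806 and 35794698. Myc itself was at 230 and 250 CPM (counts per 1000000 of the total count of the library) in the MYC-WT libraries and at 17.7 and 24.2 CPM in the MYC-deficient libraries, as the labels say. Markers of macrophages were present in every library (7 of 7, summed level 3280 and 2783 CPM in the controls, against 5057 and 4747 CPM in the MYC-deficient libraries), and 4 of the 7 were called higher in MYC-deficient cells. Of 9 osteoclast markers 3 were called lower and none higher, with summed levels of 1635 and 2371 CPM in the controls against 1410 and 1462 CPM, and Calcr was at 0 in every library. Summed levels of 6 monocyte markers were higher in MYC-deficient (264 and 155 CPM) than in MYC-WT libraries (55.5 and 27.9 CPM). Of these 6 markers, 2 were called higher. Sums of 7 neutrophil markers overlapped between the groups (229 and 86.9 against 89.3 and 39.9 CPM), and no neutrophil marker was called. Lists for dendritic, B, T, erythroid and stromal cells reached at most 6.43 CPM, with 1 dendritic marker called higher. The part of these other cells, and of the lower osteoclast markers, in the results below was not tested. In bulk RNA fewer cells that express a gene and less RNA of it per cell cannot be told apart.

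Modified nucleosides are made after transcription. In tRNA they hold the fold of the molecule and tune codon reading, in rRNA they lie around the functional centres of the ribosome, and in mRNA N6-methyladenosine (m6A) affects splicing, translation and decay. Pseudouridine is an isomer of uridine, and dihydrouridine is its reduced form in the D loop of tRNA. MYC binds DNA with MAX at the E-box sequence CACGTG and is known for raising genes of ribosome production. The roles given below are known mainly from human cells and yeast.

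Of the 57 tested genes, 24 were lower in MYC-deficient cells, 1 was higher and 32 did not pass the test. Calls needed a Benjamini-Hochberg adjusted p below 0.05 in edgeR's quasi-likelihood test together with a change of more than 1.5-fold, and 9.91% of the 13436 genes tested were called lower and 6.06% higher. The median log2 fold change of the 57 genes was -0.51, against -0.01 over all tested genes, and 52 of 57 had a negative value (51 with RLE scaling, 53 with total counts). In 47 of them both MYC-deficient libraries lay below both MYC-WT libraries, which 35.9% of all tested genes did, and in 1 they lay above both, which 27.5% of all tested genes did. Lack of overlap is a weaker criterion than the test. The number of calls depended on single libraries. Lower calls over the whole table were also fewer in each fit that left out a library, so the drop was not particular to the members. Without MYC-WT replicate 2 only 3 members were called lower (Nsun2, Pus7 and Trmt1), without MYC-WT replicate 1 the number was 13 and without MYC-deficient replicate 1 it was 15, while all 24 kept a negative log2 fold change in each of these fits.

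The 24 lower genes included all 5 Pus and Pusl genes, all 3 Dus genes, 2 of 4 Rpusd genes, 7 of 15 Trmt genes, 2 of 6 Nsun genes, 4 of 21 Mettl genes and 1 of 3 Thumpd genes. Pseudouridine synthases (Pus, Pusl and Rpusd) thus gave 7 of 9 lower genes, with a median log2 fold change of -0.96. Methyltransferases by name (Trmt, Nsun and Mettl) gave 13 of 42, with a median of -0.39. The difference between these groups of genes was not tested.

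**Figure D1:**
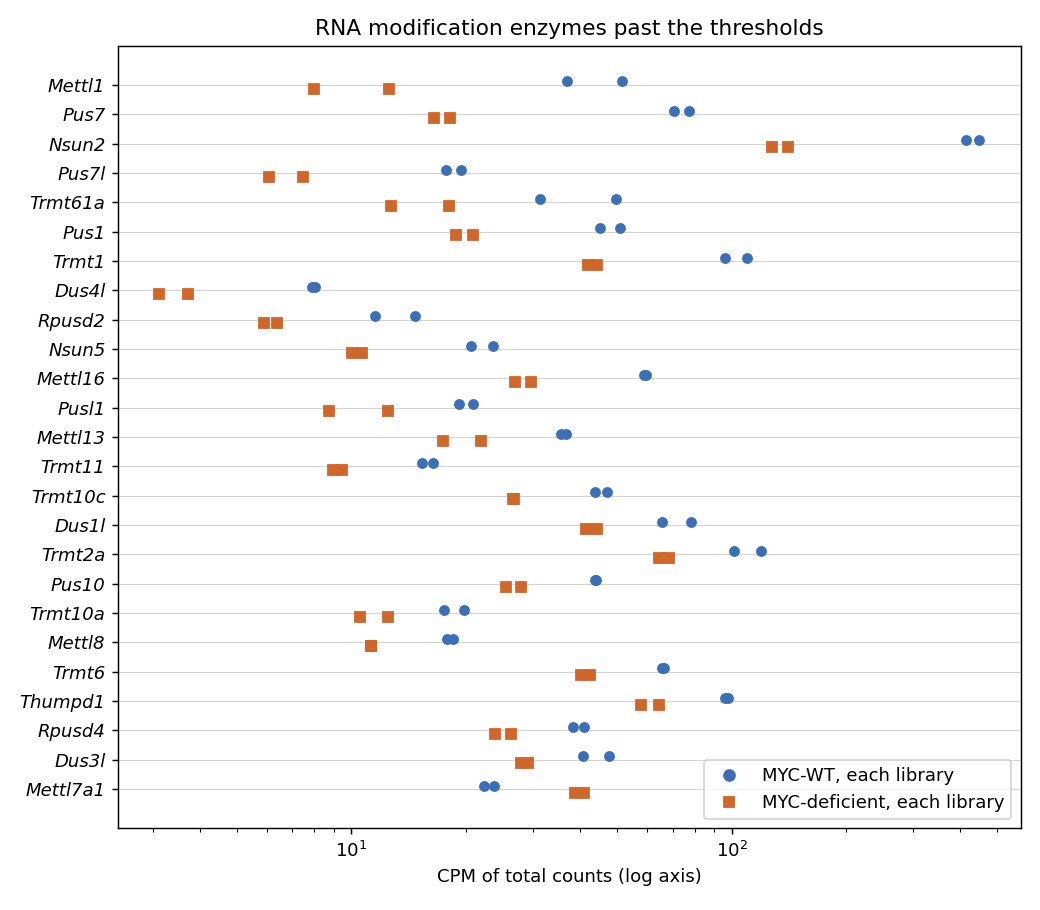
Level of each of the 25 members past the thresholds, as CPM of total counts on a log axis, with 1 point per library (circles MYC-WT, squares MYC-deficient), ordered by log2 fold change. Mettl13 and Mettl7a1 among them act on proteins or small molecules. In 24 genes both squares lie below both circles, and in Mettl7a1 both lie above.

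Pus7, a stand-alone pseudouridine synthase that acts on tRNA and other RNAs, was at 70.6 and 77.1 CPM in the MYC-WT libraries and at 16.5 and 18.2 CPM in the MYC-deficient libraries. The libraries of a genotype lay close together and the genotypes far apart, with a log2 fold change of -2.06 (standard error, SE, 0.13, edgeR quasi-likelihood adjusted p = 0.00711), a 4.18-fold lower level. Pus1, which modifies tRNA in the nucleus and in mitochondria, was at 45.0 and 50.8 CPM in MYC-WT and at 18.9 and 20.9 CPM in MYC-deficient libraries. The change of Pus1 on the log2 scale was -1.24 (SE 0.13, edgeR quasi-likelihood adjusted p = 0.0093), and 30.1% of its exon length is shared with other annotated genes, whose reads cannot be separated without a stated strand setting. Pus10, which makes pseudouridine in the T loop of tRNA, fell less, from 44.0 and 43.7 CPM to 28.0 and 25.6 CPM. The related Pus7l, with no substrate assigned here, was at 17.8 and 19.5 CPM in MYC-WT and at 6.06 and 7.44 CPM in MYC-deficient libraries. The change of Pus7l (log2 fold change -1.44, SE 0.18) was thus the second largest among the pseudouridine synthases taken by name. Pusl1 had a log2 fold change of -0.89 with an edgeR quasi-likelihood adjusted p of 0.0453, the passing value nearest to the threshold, and it shares 29.9% of its exon length with Ints11. Without MYC-WT replicate 2, Pus7 alone of these genes kept its call, with an adjusted p of 0.0531 for Pus1, 0.102 for Pus10 and 0.0689 for Pus7l in that fit, and Pus10 also lost it without MYC-WT replicate 1. Pusl1 lost its call with RLE scaling and without MYC-WT replicate 1, MYC-WT replicate 2 or MYC-deficient replicate 1, with adjusted p up to 0.191 among these fits.

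Several of these genes hold the E-box CACGTG near their start site. RefSeq promoters (GRCm38.p6, from 250 bases before to 50 after each start) were matched by symbol for 51 of the 61 members, and the 6 letters, which read the same on both strands, were found in 8 of them. Among lower members with a promoter window 7 of 20 held the sequence (35.0%), and among members that did not pass it was found in 1 of 28, Thumpd2. Among the 74 genes with other names, described below, it was found in 2 of 20 lower genes with a window (10.0%), in 3 of 43 that did not pass (6.98%) and in 5 of 63 in all (7.94%). The share was 8.09% over the 27025 genes of the promoter table, 11.8% over all tested genes with a window and 16.9% over all lower genes with a window. Trmt1, Trmt6, Nsun5 and Mettl13 are lower members without a window in the table. These shares are a description, no binding was measured, and the absence of these letters from a window says nothing on binding elsewhere. In Mettl1, Pus1, Pus7, Pusl1 and Trmt61a the E-box begins between 22 and 30 bases after a listed start site. In Trmt10a it begins at position -15 from the most downstream of its listed starts, and Rpusd4 holds it at -85 and -61. Each site is shown with 12 bases on either side, 5′ to 3′ along the gene, to let the surroundings be compared, and the capitals mark the E-box.
Mettl1, chr10:127041950-127041979, plus strand: agctcggctctcCACGTGgactgcgtggca
Pus1, chr5:110780576-110780605, minus strand: tccgccttcgtgCACGTGgtcagcttcggg
Pus7, chr5:23783666-23783695, minus strand: ggcgcagcgccgCACGTGtgcgagcccggc
Pusl1, chr4:155891718-155891747, minus strand: tcgaccgcgggcCACGTGcaagcgccccgc
Trmt61a, chr12:111678118-111678147, plus strand: ccgccgtggagcCACGTGtggagccgggag
Trmt10a, chr3:138143772-138143801, plus strand: cccctcgccactCACGTGccgtcttccaga
Rpusd4, chr9:35267784-35267813, plus strand: cgcgcaccgcccCACGTGacccgtaggcta
Rpusd4, chr9:35267808-35267837, plus strand: aggctacctgccCACGTGatcagcagggcc
Thumpd2, chr17:81065078-81065107, minus strand: cgctcccgagctCACGTGaccgggtctcgg

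Of the 25 enzymes and partners of cytosolic tRNA, 15 were lower (60%, against 9.91% of all tested genes) and 10 did not pass. The median log2 fold change of the 25 was -0.65. Their summed level was 1367 and 1489 CPM in MYC-WT, against 694 and 720 CPM in MYC-deficient libraries. The number of lower genes was 8 without MYC-WT replicate 1, 3 without MYC-WT replicate 2 and 9 without MYC-deficient replicate 1.

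Nsun2 (ENSMUSG00000021595, chr13:69533746-69635780 in mm10), which puts 5-methylcytosine into many tRNAs, was the most abundant member. It was at 413 and 449 CPM in the MYC-WT libraries and at 128 and 141 CPM in the MYC-deficient libraries. Both MYC-deficient values lay far below both controls, with a log2 fold change of -1.66 (SE 0.13, edgeR quasi-likelihood adjusted p = 0.00721). Nsun2 shares 11.1% of its exon length with other annotated genes. Per length of exon its mean level in MYC-WT was 75.1 CPM per kb, against 32.2 CPM per kb for Thumpd1, the next of the members. Nsun2 made up 20.5% and 20.9% of the summed level of all 61 genes in the controls, against 10.7% and 11.6% in the MYC-deficient libraries. The sum of all members was 2012 and 2146 CPM in MYC-WT against 1198 and 1207 CPM in MYC-deficient libraries. Without Nsun2 it was 1599 and 1697 CPM against 1070 and 1067 CPM, so the lower sum did not rest on this gene alone.

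Mettl1 (ENSMUSG00000006732, chr10:127041414-127046365 in mm10) makes 7-methylguanosine in the variable loop of tRNA together with the protein encoded by Wdr4. Mettl1 was at 37.0 and 51.4 CPM in the MYC-WT libraries and at 7.96 and 12.6 CPM in the MYC-deficient libraries. The groups did not overlap although the libraries within each differed, and its log2 fold change of -2.08 (SE 0.29, edgeR quasi-likelihood adjusted p = 0.0139) was the most negative of the members. Wdr4, which the names do not take in, was at 41.9 and 50.0 CPM in MYC-WT and at 15.9 and 18.2 CPM in MYC-deficient libraries, a log2 fold change of -1.40. Mettl1 counts per Wdr4 count were 0.882 and 1.03 in the controls, against 0.50 and 0.693 in the MYC-deficient libraries. Both partners were thus lower, and the ratio was lower as well in both MYC-deficient libraries, a difference that was not tested. Without MYC-WT replicate 2 the adjusted p of Mettl1 was 0.0587.

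Trmt6 and Trmt61a encode the subunits of the enzyme that makes 1-methyladenosine in the T loop of tRNA, with Trmt61a as the catalytic one. Trmt61a was at 31.3 and 49.8 CPM in MYC-WT and at 12.7 and 18.1 CPM in MYC-deficient libraries, a log2 fold change of -1.37 (SE 0.30). Trmt6 was at 65.6 and 66.5 CPM in MYC-WT and at 40.3 and 42.4 CPM in MYC-deficient libraries, a log2 fold change of -0.65 (SE 0.11). Trmt61a varied more between replicates than Trmt6 in both groups. Counts of Trmt61a per count of Trmt6 were 0.477 and 0.749 in MYC-WT against 0.316 and 0.426 in MYC-deficient libraries, and this difference was not tested. In edgeR's quasi-likelihood test the adjusted p values were 0.0346 for Trmt61a and 0.0181 for Trmt6. Neither passed without MYC-WT replicate 2 (adjusted p of 0.120 and 0.109), and Trmt6 also failed without MYC-WT replicate 1 or MYC-deficient replicate 1.

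Trmt1, which dimethylates a guanosine at the junction of the D and anticodon arms, was at 96.3 and 110 CPM in MYC-WT and at 44.2 and 42.0 CPM in MYC-deficient libraries. It fell by 1.23 on the log2 scale (SE 0.12, edgeR quasi-likelihood adjusted p = 0.00875), and kept its call whichever library was left out. Thumpd1, the partner of the acetyltransferase Nat10 on tRNA, was at 97.8 and 96.0 CPM in MYC-WT and at 57.7 and 64.5 CPM in MYC-deficient libraries. Its change was smaller, with a log2 fold change of -0.64. Trmt2a, Trmt11 and Trmt10a, methyltransferases of tRNA uridine or guanosine, had log2 fold changes of -0.71, -0.76 and -0.67. Trmt2a shares 16.5% of its exon length with Dgcr8 and Ranbp1. Trmt10a, with an adjusted p of 0.0381 from the same test, was the second nearest passing member to the threshold. Trmt11 lost its call whichever library was left out (adjusted p from 0.0555 to 0.166). Thumpd1 and Trmt10a lost it in 3 of these 4 fits and Trmt2a without MYC-WT replicate 2 or MYC-deficient replicate 1. Without MYC-WT replicate 2 the adjusted p was 0.115 for Thumpd1, 0.128 for Trmt2a, 0.166 for Trmt11 and 0.139 for Trmt10a.

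All 3 dihydrouridine synthases taken by name were lower. Dus1l was at 65.7 and 78.5 CPM in MYC-WT and at 41.5 and 44.2 CPM in MYC-deficient libraries. Dus3l was at 40.8 and 47.5 CPM against 29.1 and 28.0 CPM. Dus4l, the least abundant of the 3, was at 7.88 and 8.03 CPM against 3.72 and 3.12 CPM. None of the 3 overlapped between genotypes, and Dus4l had the largest change, with log2 fold changes of -1.19 for Dus4l, -0.72 for Dus1l and -0.60 for Dus3l. In edgeR's quasi-likelihood test the adjusted p values were 0.0195, 0.0264 and 0.0337 in that order. Dus3l, close to the fold threshold, lost its call in every fit that left out a library, with RLE scaling and with DESeq2. Without MYC-WT replicate 2 the adjusted p was 0.119 for Dus4l, 0.128 for Dus1l and 0.182 for Dus3l. Dus4l also lost its call without MYC-WT replicate 1 and Dus1l without MYC-deficient replicate 1. Dus2, whose name lacks the final letter of the rule, was at 14.4 and 14.6 CPM against 10.1 and 12.2 CPM and did not pass.

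The 10 tRNA genes that did not pass ran from a log2 fold change of -0.48 for Trmt5, a guanosine methyltransferase next to the anticodon, to 0.22 for Nsun6. Trmt5 was at 21.5 and 21.5 CPM in MYC-WT and at 15.9 and 14.4 CPM in MYC-deficient libraries, and with an edgeR quasi-likelihood adjusted p of 0.0526 it was the member nearest to the threshold on the other side. Mettl26, with no substrate assigned, followed at 0.0656. Trmt12, an enzyme of wybutosine synthesis, lies 3.11 Mb from Myc, the only member within 10 Mb. It was at 10.4 and 11.3 CPM in MYC-WT and at 8.33 and 8.97 CPM in MYC-deficient libraries, with a log2 fold change of -0.30 that did not pass (adjusted p = 0.255 from the same test).

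**Figure D2:**
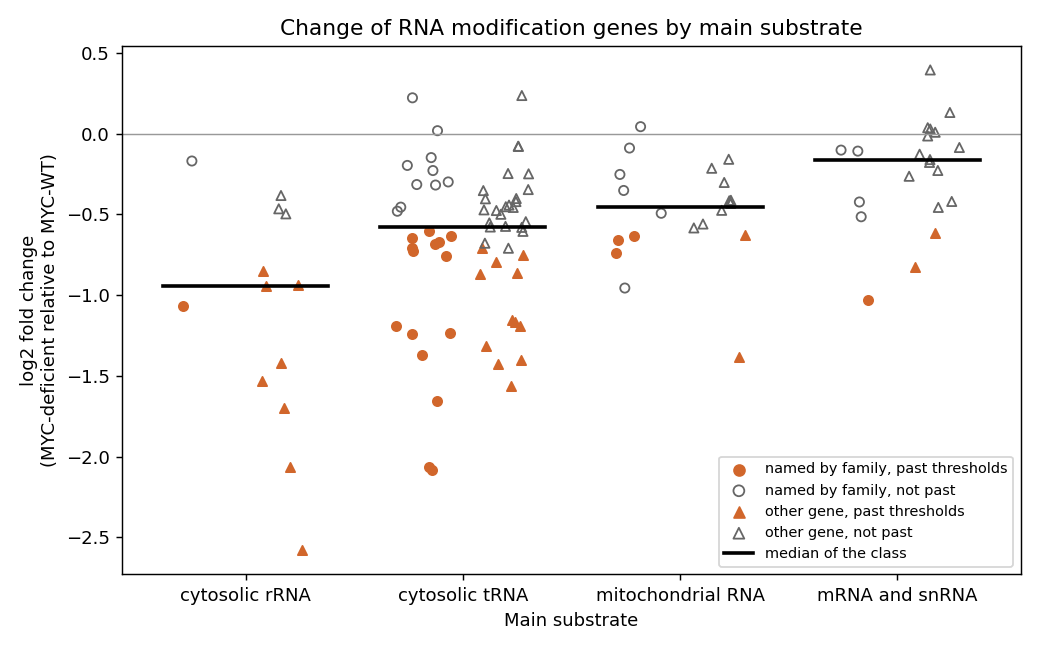
Log2 fold change (MYC-deficient over MYC-WT) of each tested gene, by substrate class, with the genes taken by name and the other RNA modification genes marked apart and the genes past the thresholds drawn filled (horizontal lines, class medians over both lists). Over both lists the class medians are -0.94 for cytosolic rRNA, -0.58 for cytosolic tRNA, -0.45 for mitochondrial RNA and -0.16 for mRNA and snRNA.

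Among members that act on cytosolic rRNA, Nsun5, which methylates a cytosine of the large subunit rRNA, was at 20.6 and 23.6 CPM in MYC-WT and at 10.6 and 10.0 CPM in MYC-deficient libraries. It fell by 1.07 on the log2 scale (SE 0.15, edgeR quasi-likelihood adjusted p = 0.0135), lost its call when MYC-WT replicate 2 was left out (0.0840), and shares 15.4% of its exon length with Pom121. Mettl5, which makes m6A in small subunit rRNA, was at 8.49 and 9.30 CPM against 8.19 and 7.33 CPM. Trmt112, the adaptor that Mettl5 and several tRNA and protein methyltransferases need for stability, was at 19.6 and 24.2 CPM against 14.9 and 19.8 CPM. Neither Mettl5 (log2 fold change -0.17, adjusted p = 0.533) nor Trmt112 (-0.31, adjusted p = 0.335) passed edgeR's quasi-likelihood test. For Trmt112 the groups overlapped, and 39.1% of its exon length is shared with Esrra and Prdx5.

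Of the 5 members that act on mRNA or snRNA, Mettl16 alone was lower (20%, against 9.91% of all tested genes). Mettl16, which makes m6A in U6 snRNA and in the mRNA of the methionine adenosyltransferase Mat2a, was at 59.5 and 58.8 CPM in MYC-WT and at 29.8 and 27.0 CPM in MYC-deficient libraries. The log2 fold change was -1.03 (SE 0.11, edgeR quasi-likelihood adjusted p = 0.00888), and the call was lost when MYC-WT replicate 2 was left out (0.0533). Mettl3, the catalytic subunit of the m6A writer of mRNA, was at 22.7 and 22.6 CPM in MYC-WT and at 21.7 and 19.5 CPM in MYC-deficient libraries. Mettl3 shares 18.4% of its exon length with Tox4. Its partner Mettl14 was at 36.9 and 36.7 CPM against 34.8 and 32.5 CPM. Neither passed, Mettl3 at -0.11 on the log2 scale (SE 0.12) and Mettl14 at -0.10 (SE 0.10), with edgeR quasi-likelihood adjusted p of 0.564 and 0.530. Counts of Mettl3 per count of Mettl14 were 0.615 and 0.614 in the controls, against 0.622 and 0.60 in the MYC-deficient libraries, so this ratio hardly moved between the 4 libraries.

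Of the 9 members that act on mitochondrial RNA, 3 were lower (Trmt10c, Rpusd4 and Mettl8) and none was higher. Over all tested genes 9.91% were lower and 6.06% higher. Trmt10c, the methyltransferase subunit of mitochondrial RNase P, was at 43.7 and 47.1 CPM in MYC-WT and at 26.6 and 26.8 CPM in MYC-deficient libraries, a log2 fold change of -0.74 (SE 0.11, edgeR quasi-likelihood adjusted p = 0.0161). Rpusd4, a pseudouridine synthase of mitochondrial rRNA and tRNA, and Mettl8, a 3-methylcytosine methyltransferase, had log2 fold changes of -0.63 and -0.66. Nsun4, which methylates mitochondrial rRNA, was at 12.2 and 11.5 CPM against 9.16 and 10.3 CPM and did not pass. The count of 3 was 1 without MYC-WT replicate 1, 0 without MYC-WT replicate 2, where Trmt10c had an adjusted p of 0.101, 1 without MYC-deficient replicate 1 and 2 without MYC-deficient replicate 2. Mettl8 lost its call in all 4 of these fits (adjusted p from 0.0635 to 0.150), and Rpusd4 in all but the last.

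Members whose substrates are proteins or small molecules had a median log2 fold change of -0.06 over the 7 tested. Mettl7a1, whose human counterpart is a membrane-bound thiol methyltransferase, was the only higher member. It was at 22.4 and 23.7 CPM in MYC-WT and at 38.6 and 41.0 CPM in MYC-deficient libraries, and rose by 0.82 on the log2 scale (SE 0.11, edgeR quasi-likelihood adjusted p = 0.0139). Leaving out either control library ended the call (adjusted p of 0.0656 without replicate 1, 0.0744 without replicate 2). Mettl13, which methylates the elongation factor eEF1A, went the other way, from 36.8 and 35.6 CPM to 22.0 and 17.4 CPM, with a log2 fold change of -0.85 and an adjusted p of 0.0193 from the same test. It lost the call without MYC-WT replicate 1 (0.0720) or replicate 2 (0.0953). Among Mettl genes with an RNA substrate 3 of 11 were lower, and among the other Mettl genes 1 of 10 was lower and 1 higher, near the 9.91% and 6.06% of all tested genes. No test compared these groups.

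The 74 RNA modification genes with other names had a median log2 fold change of -0.47. They gave 24 lower genes (32.4%, against 9.91% of all tested genes) and none higher (against 6.06%). Their number was 7 without MYC-WT replicate 2. The 3 most negative values were those of rRNA genes. Dkc1, the pseudouridine synthase of box H/ACA particles, was at 167 and 180 CPM in MYC-WT and at 28.9 and 28.1 CPM in MYC-deficient libraries, a log2 fold change of -2.58. Nop2, which methylates a cytosine of large subunit rRNA, was at 156 and 186 CPM against 37.2 and 43.2 CPM, and Fbl, the ribose methyltransferase of box C/D particles, was at 93.7 and 118 CPM against 28.4 and 35.4 CPM. All 3 lay well apart between genotypes, and among the rRNA genes Ftsj3 and the acetyltransferase Nat10 followed with log2 fold changes of -1.53 and -1.42. Of the tRNA genes, Tarbp1, Trub1 and Qtrt1 had log2 fold changes of -1.16, -1.31 and -1.56. Mitochondrial Mrm3 and Mto1 had -1.38 and -0.63. Among mRNA genes, the cap methyltransferases Rnmt (-0.82, 71.4 and 75.5 CPM against 41.1 and 40.3 CPM) and Cmtr2 (-0.61) were lower, while Wtap, the splicing-associated partner of the m6A writer, was at 89.5 and 79.2 CPM against 91.3 and 77.6 CPM. Pcif1, the cap-adjacent adenosine methyltransferase, had the largest positive value (0.40) and did not pass.

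Over both lists, 9 of 13 cytosolic rRNA genes (69.2%), 27 of 61 cytosolic tRNA genes (44.3%), 5 of 20 mitochondrial genes (25.0%) and 3 of 21 mRNA and snRNA genes (14.3%) were lower, against 9.91% of all tested genes, and none was higher. Relative to the MYC-WT mean, the summed level of the rRNA genes was 34.4% and 38.7% in the MYC-deficient libraries, with 93.0% and 107% in the MYC-WT libraries. For the tRNA genes it was 55.4% and 57.4%, for the mitochondrial genes 73.4% and 78.0%, and for the mRNA and snRNA genes 89.4% and 81.9%. The order of the classes over both lists was the same in both MYC-deficient libraries. It was not the order in the members alone. There the summed level in MYC-deficient over that in MYC-WT libraries was 0.495 for tRNA and 0.584 for the 2 rRNA genes. For mRNA and snRNA members it was 0.704, and for mitochondrial members 0.766. The 8 genes of the m6A writer, Mettl3 and Mettl14 included, gave no call, with log2 fold changes from -0.46 to 0.03. The lowest was Rbm15b, at 45.9 and 43.5 CPM in MYC-WT and 33.1 and 30.7 CPM in MYC-deficient libraries. Its edgeR quasi-likelihood adjusted p was 0.0392, and it missed the call only by its 1.37-fold change. Sums over the 8 genes were 97.8% and 86.3% of the MYC-WT mean, against 105% and 95.2% in the MYC-WT libraries. MYC-deficient replicate 1 thus lay between the controls and replicate 2 below both. No test compared the classes, which differ in number and in level of expression, and genes of a class are not replicates. Of the 13 rRNA genes, 11 came from the genes with other names. Those genes and the classes were chosen with earlier results of these data known. Each gene was counted in 1 class only, although some act on RNAs of other classes as well. Pus7, which acts on tRNA and other RNAs, was counted with the tRNA genes, and Nat10, which also acts on tRNA, with the rRNA genes. Without MYC-WT replicate 2 the counts of lower genes were 5 of rRNA, 5 of tRNA, 0 of mitochondrial and 0 of mRNA and snRNA genes, and without MYC-WT replicate 1 or MYC-deficient replicate 1 the mitochondrial count was 2, without MYC-deficient replicate 2 it was 3.

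**Figure D3:**
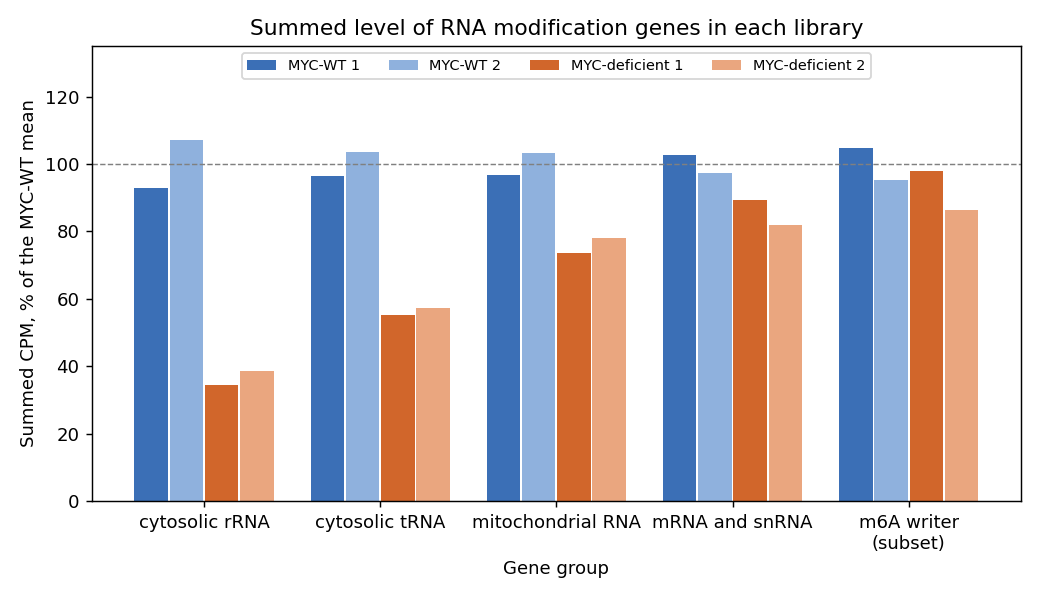
Summed level of the genes of each substrate class in each library, as percent of the MYC-WT mean of that class, over both lists. The MYC-deficient libraries lie at 34.4% and 38.7% for cytosolic rRNA genes, 55.4% and 57.4% for cytosolic tRNA genes, and 97.8% and 86.3% for the m6A writer.

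Replicate libraries lay closer together in the members than in genes at large. The median absolute log2 difference between the MYC-WT libraries was 0.120 for the 57 tested members and 0.193 for 13416 tested genes with counts in every library, and between the MYC-deficient libraries it was 0.139 and 0.205. Level of expression was not matched in this comparison, and no test was run.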

How the data were processed

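The authors aligned reads to mm10 and deposited read counts per gene for 4 libraries. STAR 2.7.3a, fastp, bcl2fastq 1.8.4 and edgeR are listed in the submitters' processing notes. No source used here gives the strand setting of the counting. The authors also deposited a filtered table of log2 CPM values, used for 1 alternative.

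Counts were tested with edgeR 4.0.16 in R 4.3.3 (filterByExpr with min.count 10 and min.total.count 15, TMM scaling, quasi-likelihood test, MYC-deficient against MYC-WT, no block). Benjamini-Hochberg adjustment ran over 13436 genes, and calls needed an adjusted p below 0.05 with a change of more than 1.5-fold. The procedure was tested on simulated counts with independent libraries and the same dispersion for every gene. Such counts cannot show how it performs on these libraries. With 2 libraries per group there were 2 residual degrees of freedom, and the test shares information on spread across genes. The p-values therefore rest partly on the spread of other genes, and measure spread between these libraries only. Levels are CPM of total counts. Exon lengths and shared exon sequence came from GENCODE release M21. Classes were assigned from general knowledge, 1 per gene. The members, gene lists, classes and tests were chosen with earlier results of these data known.

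Genes were named by a rule: Myc, a list by role, the 12 lower members with the smallest adjusted p, every higher member, the 2 members nearest each side of the threshold, members within 10 Mb of Myc, and of the other genes up to 4 per class that passed plus Nop2, Fbl, Dkc1, Wdr4, Wtap and Rnmt. Rpusd4, Mettl8, Trmt2a, Trmt11, Dus2, Pcif1, Nsun6, Rbm15b, Thumpd2, Mettl21a and Mettl27 were named after their values were seen. The untested members and the rows that are not protein coding were named for their counts. Of 76 other genes looked for, 2 were not matched. Alternatives were RLE scaling, total counts, no filter, the authors' genes, a likelihood ratio test, a replicate block, DESeq2 1.42.0, limma-trend (limma 3.58.1) on the authors' log2 CPM, other fold thresholds and leaving out each library.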

Additional observations from a re-analysis of the deposited data

Results flagged for a closer look

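Rows of the count table whose names match the families but are not protein coding were not part of the comparisons and held counts. Trmt61b is therefore not among the members. The row named Trmt61b, typed as antisense in the table, held 474 counts over the 4 libraries (129 and 127 in MYC-WT, 104 and 114 in MYC-deficient), with a log2 fold change of -0.20 that did not pass edgeR's quasi-likelihood test (adjusted p = 0.640). Mettl5os, antisense to Mettl5, held 53 counts and the pseudogene Trmt112-ps2 held 35.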

How the results depend on the processing

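No called result reversed. Members near 0 that did not pass could change sign, such as Mettl21a (-0.016, and 0.014 with RLE scaling) and Mettl27 (-0.186, and 0.058 without MYC-WT replicate 1), and 50 of 56 members were negative with limma-trend. All 24 lower members kept a negative log2 fold change under every alternative, and 22 stayed called with RLE scaling, 23 with DESeq2 and 23 with limma-trend. At a fold threshold of 2, the lower members numbered 11 and the higher 0. The lower tRNA members numbered 7, the lower mitochondrial members 0 and the lower genes with other names 13. Of the 13436 genes tested, that threshold called 689 lower and 349 higher, against 1331 and 814 in the main fit. Over both lists that threshold gave 14 tRNA, 1 mRNA and snRNA and 1 mitochondrial gene, and with no fold threshold there were 5 mRNA and snRNA genes. Leaving out each library in turn gave 3 to 20 lower and 0 to 1 higher members with medians from -0.60 to -0.47, 3 to 12 lower tRNA members, 0 to 1 rRNA, 0 to 1 mRNA and snRNA members with medians from -0.58 to -0.27, and 0 to 2 mitochondrial members with medians from -0.63 to -0.34. The genes with other names gave 7 to 25 lower with medians from -0.55 to -0.42. Over both lists the ranges were 5 to 10 for rRNA (medians -1.05 to -0.87), 5 to 26 for tRNA (medians -0.64 to -0.55), 0 to 2 for mRNA and snRNA (medians -0.21 to -0.07), and 0 to 3 for mitochondrial genes (medians -0.54 to -0.38). A fit that leaves out a library has 1 library in a group, which is assumed to vary like the other group. The fit lacking MYC-WT replicate 2 called 199 genes lower and 65 higher over the whole table, against 1331 and 814. The cause was not tested.

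With the replicate number as a block, 26 members and 27 other genes were lower. Deviations of same-numbered libraries correlated at 0.499, and the labels do not say that a number marks a shared mouse or day. Over all genes the replicate block gave 1774 lower and 1400 higher genes.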
